A study of Mus musculus with 10 samples.

Results

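The 10 genes described here encode Wnt receptors, beta-catenin and proteins that act with it. They are the coreceptor genes *Lrp5* and *Lrp6*, the Frizzled receptor genes *Fzd1*, *Fzd2*, *Fzd4* and *Fzd7*, the receptor kinase gene *Ror2*, the beta-catenin gene *Ctnnb1*, the transcription factor gene *Tcf7l2* and the feedback inhibitor gene *Axin2*. They were picked by symbol from the 55359 genes of the deposited table, with earlier results of these data known, and all 10 passed the filter for testing. RNA was sequenced from C2C12 cells, an immortalized mouse myoblast line that forms multinucleated myotubes when serum is withdrawn. All 10 libraries came from cells transfected with 100 nM siRNA and differentiated in medium with horse serum. The day of differentiation is taken here as 4, while the series text gives an earlier time after transfection. Of these, 5 libraries received a control siRNA (si-Control) and 5 received an siRNA against *Fndc1* (si-*Fndc1*), the gene of a secreted protein with fibronectin type III domains that the study examined in muscle differentiation. No label says that the libraries of a group came from separate cultures, so p-values measure the spread between these libraries, which may be technical.

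Wnt proteins are secreted lipid-modified ligands that bind the extracellular domain of Frizzled receptors together with the coreceptors LRP5 or LRP6. Without ligand, a cytoplasmic complex built on the Axins marks beta-catenin for degradation, whereas receptor engagement recruits Dishevelled and lets beta-catenin enter the nucleus to act with TCF/LEF factors. *Axin2* is a direct target of this branch in many tissues and dampens it in turn. ROR2 binds Wnt ligands in branches that do not use beta-catenin. In skeletal muscle, Wnt signalling takes part in the commitment of myogenic precursors and in the differentiation of myoblasts.

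The level of *Fndc1* itself was 27.8 ± 2.04 FPKM (fragments normalised to a length for each gene and to library size, mean ± SD, n = 5) in si-Control and 20.9 ± 1.70 FPKM in si-*Fndc1*, with log2 fold change −0.40 (SE 0.07, adjusted p = 0.000934 by edgeR's quasi-likelihood test). After a correction for transcript GC content and length, described below, it was −0.22 (adjusted p = 0.0104). Total counts per library ranged from 66771605 to 75995168 (si-Control) and from 56332844 to 72839369 (si-*Fndc1*). All 10 markers of myoblasts and myotubes were tested, and their summed level was 3794 to 4247 FPKM in si-Control and 3629 to 4370 FPKM in si-*Fndc1*, with *Acta1* the highest (1898 ± 90.7 and 1978 ± 172 FPKM). Single markers differed in both directions at an adjusted p under 0.05 by edgeR: *Ckm* (log2 fold change 0.39), *Mymk* (0.26), *Chrna1* (0.19) and *Myod1* (0.16) were higher in si-*Fndc1*, and *Ttn* (−0.45) and *Cdh15* (−0.18) lower. Of these 6, *Ckm* (0.57) and *Myod1* (0.24) were called after the same correction, while *Mymk* was at 0.20, *Chrna1* at 0.09, *Ttn* at 0.07 and *Cdh15* at 0.03. With the correction *Myog* was also called lower (−0.18, adjusted p = 0.0217 by edgeR) and *Des* higher (0.10, adjusted p = 0.0386). Without it they were at −0.12 (adjusted p = 0.137) and −0.04 (adjusted p = 0.395) and not called. Transcripts of liver were also measured. Of 14 hepatocyte markers, 12 were tested and all 12 were higher in si-*Fndc1* at an adjusted p under 0.05, beside 17.3% of all tested genes. The filter took the mean over all 10 libraries. Markers such as *Apoa1* (0.239 FPKM in si-Control, 18.5 FPKM in si-*Fndc1*) passed it only through their si-*Fndc1* values, so their direction was largely set by the filter. The summed level of the 14 was 0.0443 to 5.90 FPKM in si-Control and 50.3 to 178 FPKM in si-*Fndc1*, at most 0.0547% of a library's summed FPKM. The defining hepatocyte gene *Alb* was at 1.06 ± 1.26 FPKM in si-Control and 44.3 ± 19.5 FPKM in si-*Fndc1*, and the part of such transcripts in the results below was not tested. Of the adipocyte markers, 4 of 5 were listed at 0 in every library. Endothelial markers summed to 0.0951 to 0.134 FPKM (si-Control) and 0.123 to 0.292 FPKM (si-*Fndc1*), with *Cdh5* at 0 and *Tek* the highest (0.0976 and 0.164 FPKM, not tested). Blood and immune markers summed to 1.15 to 2.23 and 1.86 to 2.88 FPKM, with *Ptprc* at 0. *Hba-a1* was at 1.01 FPKM in si-Control and 1.35 FPKM in si-*Fndc1*, and *Cd68* at 0.788 and 0.690 FPKM, both not called. *Hbb-bs* was at 0.0032 and 0.330 FPKM, from at most 36 counts a library, and was not tested.

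Promoter sequence of the members was read from the RefSeq table of start sites on build GRCm38.p6, where 7 of the 10 members have an entry with 9 start sites in all. The 250 bases upstream of the start site are shown for 3 members that fell in si-*Fndc1* and for *Ctnnb1*, which did not pass the test, so that the genes can be set side by side. Capitals mark matches, on either strand, to GGGCGG (a GC box, the core letters bound by Sp factors) and to CTTTGA (the core letters bound by TCF/LEF factors).

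Axin2: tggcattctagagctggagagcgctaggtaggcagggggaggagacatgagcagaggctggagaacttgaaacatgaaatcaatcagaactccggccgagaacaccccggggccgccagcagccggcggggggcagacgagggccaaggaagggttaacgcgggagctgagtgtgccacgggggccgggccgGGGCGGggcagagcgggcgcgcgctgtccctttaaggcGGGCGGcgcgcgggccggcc
Ror2: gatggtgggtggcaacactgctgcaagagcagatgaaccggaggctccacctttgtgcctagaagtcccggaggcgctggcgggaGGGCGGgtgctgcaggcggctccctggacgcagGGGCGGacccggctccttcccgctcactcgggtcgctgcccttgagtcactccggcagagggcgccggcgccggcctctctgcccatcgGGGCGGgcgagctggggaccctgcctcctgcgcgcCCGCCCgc
Fzd1: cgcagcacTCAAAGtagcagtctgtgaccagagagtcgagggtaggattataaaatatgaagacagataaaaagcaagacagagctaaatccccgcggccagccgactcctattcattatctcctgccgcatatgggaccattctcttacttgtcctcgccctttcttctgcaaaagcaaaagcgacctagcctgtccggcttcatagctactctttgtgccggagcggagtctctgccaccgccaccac
Ctnnb1: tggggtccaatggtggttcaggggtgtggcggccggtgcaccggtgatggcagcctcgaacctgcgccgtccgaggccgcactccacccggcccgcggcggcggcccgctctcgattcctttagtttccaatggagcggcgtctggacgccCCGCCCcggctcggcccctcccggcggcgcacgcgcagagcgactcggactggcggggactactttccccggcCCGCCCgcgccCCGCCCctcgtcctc

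The windows lie at chr11:108920099-108920348 on the plus strand for *Axin2*, chr13:53286125-53286374 on the minus strand for *Ror2*, chr5:4758217-4758466 on the minus strand for *Fzd1* and chr9:120933150-120933399 on the plus strand for *Ctnnb1*. For *Ctnnb1* start site 1 is shown, and the window of its start site 2 was 74.4% G or C with 2 GC boxes. The *Ctnnb1* window shown was 74.8% G or C with 3 GC boxes, the *Ror2* window 73.2% with 4 and the *Axin2* window 69.2% with 2, against a median of 52.4% over the 32851 promoters of the table. The *Fzd1* window stood apart from these, with 51.2% G or C, no GC box and the 1 match to CTTTGA among the members' windows. At least 1 GC box stood in the windows of 7 of the 9 start sites and in 32.7% of all promoters. CTTTGA was found in 13.8% of all promoters, and the longer form CTTTGAT, which contains it, in 3.21% and in no member's window. The E-box letters CAGCTG, read by myogenic factors, were in 13.0% of all promoters and in 0 of the 9 windows. Absence from these 250 bases says nothing about sites elsewhere, and a match is a run of letters only.

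FPKM divides by a length for each gene, so levels of different genes can be set side by side. How that length was defined is not given (the values imply 10828 bases for *Lrp5*), so the order between genes is approximate. *Ctnnb1* was the most abundant of the 10 in both groups, followed by *Fzd1*, *Fzd2*, *Fzd7*, *Lrp5*, *Lrp6*, *Axin2*, *Tcf7l2*, *Ror2* and *Fzd4*. The order of the group means was the same in si-Control and si-*Fndc1*. Ranges over libraries did not overlap between neighbours in this order, except for *Tcf7l2* and *Ror2*, whose ranges overlapped in both groups. *Fzd1*, *Fzd2* and *Fzd7* together made up 87.3% ± 0.257 of the summed level of all Frizzled genes in si-Control and 86.6% ± 0.529 in si-*Fndc1* (SD, n = 5).

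**Figure D1:**
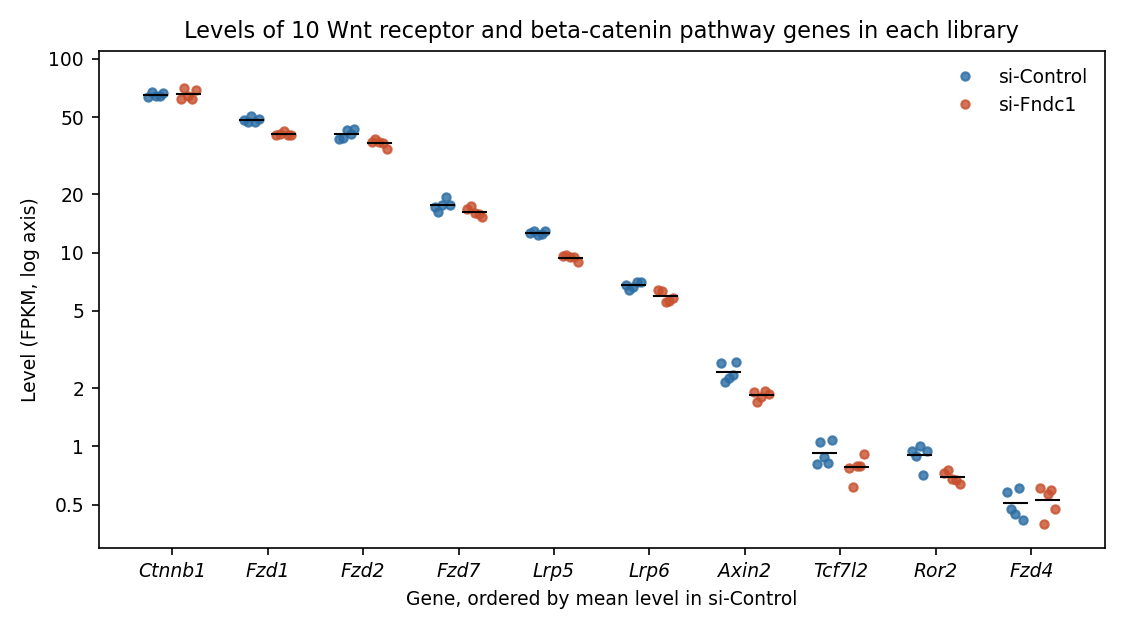
Level of each of the 10 genes in each library, as FPKM on a log axis, with genes ordered by their mean in si-Control. Points are the 5 libraries of a group and bars the group means, and the order runs from *Ctnnb1* (65.0 FPKM) to *Fzd4* (0.508 FPKM).

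The question here is whether knockdown of *Fndc1* went with a change in the transcripts of these receptors and their nuclear partners. Of the 10 genes, 6 were lower in si-*Fndc1* at an adjusted p under 0.05 (*Lrp5*, *Lrp6*, *Fzd1*, *Fzd2*, *Axin2* and *Ror2*), and *Fzd4*, *Fzd7*, *Ctnnb1* and *Tcf7l2* did not pass. None was higher by edgeR, with 0 at an unadjusted p under 0.05 and 0 by DESeq2. Among all 13548 tested genes, 17.2% were called lower and 17.3% higher, 34.4% in all. The median log2 fold change of the 10 genes was −0.21, with a range of −0.42 to 0.07, beside a median of 0.00 over all tested genes (0.0043 before rounding). For 5 of the 10 genes every si-*Fndc1* library was below every si-Control library, which held for 13.0% of all tested genes (12.1% had all libraries above, 25.1% in either direction). The 10 genes were chosen with earlier results of these data known, so the shares over all genes are given for scale only. No set test was made. Since these are bulk samples, fewer cells of a type and less RNA per cell cannot be told apart.

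The GC content of a transcript moved with the difference between the groups across all genes. GC content was taken from the longest protein-coding transcript of each gene in GENCODE release M1. Among the 2797 tested genes of highest GC content (55.2% to 74.2%), 41.1% were called lower and 4.15% higher, and *Lrp5*, *Fzd1*, *Fzd2* and *Ror2* belong to them. Among the 2796 genes of lowest GC content (31.9% to 45.7%), which hold none of the members, 2.18% were called lower and 38.0% higher. A fit in which a smooth trend on GC content and length was removed from each library (the GC-corrected fit) called 22.7% of 11185 genes, 11.4% lower and 11.3% higher, where 37.9% of these genes had been called before it (19.2% lower, 18.8% higher). In that fit 3 of the 10 genes were lower, *Lrp6*, *Fzd1* and *Axin2*, and the median of the 10 was −0.10.

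**Figure D2:**
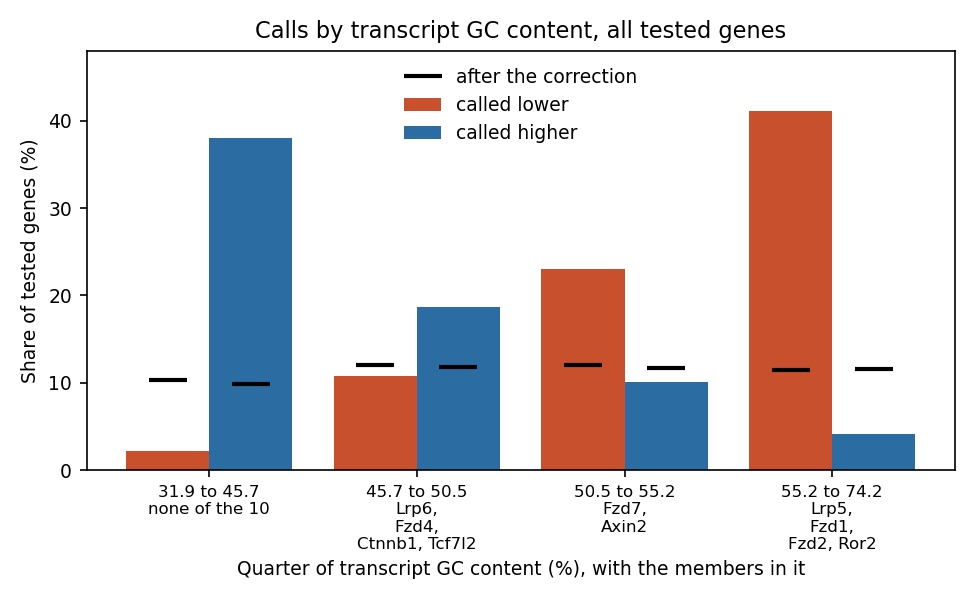
Share of tested genes called lower and higher in si-*Fndc1* in 4 groups of transcripts by GC content, in percent of the genes of a group, with the members that fall in each. The share called lower ran from 2.18% in the group of lowest GC content to 41.1% in the group of highest.

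*Lrp5* and *Lrp6* encode the single-pass coreceptors that pair with Frizzled proteins. *Lrp5* (ENSMUSG00000024913, chr19:3634828-3736564, minus strand, as listed in the deposited table, which names no build) was at 12.6, 12.9, 12.3, 12.4 and 13.0 FPKM in si-Control libraries 1 to 5 and at 9.58, 9.74, 9.44, 9.46 and 8.90 FPKM in si-*Fndc1* libraries 1 to 5. All si-*Fndc1* libraries were well below all si-Control libraries, and the libraries of a group lay close together. The mean was 25.5% lower, with log2 fold change −0.42 (SE 0.03, 95% interval −0.49 to −0.34, adjusted p = 2.00e-05 by edgeR). Its transcript is 58.6% G or C, and in the GC-corrected fit the value was −0.11 (95% interval −0.19 to −0.03, adjusted p = 0.0530 by edgeR), no longer past the threshold.

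*Lrp6* (ENSMUSG00000030201, chr6:134423439-134543876, minus strand) was at 6.82, 6.45, 6.65, 7.06 and 7.08 FPKM in si-Control and at 6.43, 6.35, 5.56, 5.62 and 5.84 FPKM in si-*Fndc1*. The groups did not overlap, but the highest si-*Fndc1* library, library 1, was barely below the lowest si-Control library, library 2. The log2 fold change was −0.19 (SE 0.05, adjusted p = 0.0121 by edgeR). With a transcript of 46.0% G or C, *Lrp6* was also lower in the GC-corrected fit, by −0.13 (adjusted p = 0.0146 by edgeR). The ratio of *Lrp5* to *Lrp6* within a library was 1.86 ± 0.0864 in si-Control and 1.59 ± 0.0969 in si-*Fndc1* (SD, n = 5, exact two-sided permutation test p = 0.00794, the smallest that 5 against 5 libraries can give). After the GC correction the log2 fold changes of the pair were −0.11 and −0.13, so the unequal size of the change was seen only without it.

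*Fzd1*, *Fzd2*, *Fzd4* and *Fzd7* encode seven-pass receptors, which bind the ligand through a cysteine-rich domain. *Fzd1* (ENSMUSG00000044674, chr5:4803839-4808035, minus strand) was at 48.3, 47.2, 50.9, 47.4 and 48.9 FPKM in si-Control and at 40.4, 41.0, 42.3, 40.5 and 40.4 FPKM in si-*Fndc1*. The 2 groups were clearly apart in all libraries. The log2 fold change was −0.24 (SE 0.03, adjusted p = 0.000208 by edgeR), and −0.09 (adjusted p = 0.0387) in the GC-corrected fit, for a transcript of 56.1% G or C.

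*Fzd2* (ENSMUSG00000050288, chr11:102495222-102498884, plus strand) was at 38.8, 39.1, 42.7, 41.1 and 43.2 FPKM in si-Control and at 37.1, 38.6, 37.1, 36.8 and 34.1 FPKM in si-*Fndc1*. The groups did not overlap, with si-*Fndc1* library 2 close to si-Control libraries 1 and 2. The log2 fold change was −0.15 (SE 0.04, adjusted p = 0.0223 by edgeR). The call was lost without si-Control library 3 (−0.14, adjusted p = 0.0555) or library 5 (−0.13, adjusted p = 0.0554), and the value was −0.0043 (95% interval −0.09 to 0.08) in the GC-corrected fit.

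The other two Frizzled members did not pass the test. *Fzd7* (ENSMUSG00000041075, chr1:59521583-59526114, plus strand) was at 17.2, 16.2, 17.6, 19.3 and 17.6 FPKM in si-Control and at 16.8, 17.4, 16.1, 15.8 and 15.3 FPKM in si-*Fndc1*, with overlapping groups and a 95% interval of −0.22 to 0.01 for the log2 fold change (adjusted p = 0.139 by edgeR), which was 0.01 in the GC-corrected fit. *Fzd4* (ENSMUSG00000049791, chr7:89053563-89062342, plus strand) was the lowest of the 10, at 0.417 to 0.612 FPKM in si-Control and 0.396 to 0.611 FPKM in si-*Fndc1*, from 201 to 333 counts a library. Its 95% interval of −0.27 to 0.41 was the widest of the Frizzled members, and its log2 fold change was 0.07 in both fits. Summed over all Frizzled genes, the level was 123 ± 3.89 FPKM in si-Control and 108 ± 3.26 FPKM in si-*Fndc1* (SD, n = 5), with ranges of 118 to 127 and 104 to 113 FPKM.

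*Ror2* (ENSMUSG00000021464, chr13:53263353-53440160, minus strand), a receptor tyrosine kinase gene, was at 0.952, 0.896, 1.001, 0.715 and 0.951 FPKM in si-Control and at 0.731, 0.759, 0.676, 0.670 and 0.642 FPKM in si-*Fndc1*, from 171 to 342 counts a library. The groups overlapped because si-Control library 4 was low, and 3 of the 5 si-*Fndc1* libraries were below all si-Control libraries. The log2 fold change was −0.36 (SE 0.11, adjusted p = 0.0260 by edgeR). The call was lost in 6 of the 10 fits that left out 1 library, namely si-Control 1, 3 or 5 and si-*Fndc1* 3, 4 or 5 (adjusted p of 0.0535 to 0.0647). In the GC-corrected fit the value was −0.15 (adjusted p = 0.363 by edgeR), for the member of highest GC content, 58.9%.

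*Ctnnb1* (ENSMUSG00000006932, chr9:120758282-120789573, plus strand) encodes beta-catenin, which also links cadherins to the cytoskeleton. It was at 63.4, 67.4, 64.1, 64.1 and 66.3 FPKM in si-Control and at 62.1, 70.4, 64.5, 62.0 and 69.0 FPKM in si-*Fndc1*. The si-*Fndc1* libraries lay on both sides of the si-Control libraries. The log2 fold change was 0.02, with a 95% interval of −0.07 to 0.11 (adjusted p = 0.748 by edgeR) and a value of 0.04 in the GC-corrected fit, and the 2 group means differed by less than the SD within si-Control. The gene *Ulk4* overlaps *Ctnnb1* on the other strand, with 56 to 185 counts a library beside at least 22389 for *Ctnnb1*. These are transcript levels, and beta-catenin is regulated largely through the stability of the protein, which was not measured here.

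*Tcf7l2* (ENSMUSG00000024985, chr19:55730252-55921685, plus strand) encodes a factor that carries beta-catenin to its target genes. It was at 0.817, 1.05, 0.879, 0.822 and 1.08 FPKM in si-Control and at 0.770, 0.615, 0.797, 0.794 and 0.920 FPKM in si-*Fndc1*. Of the si-*Fndc1* libraries, 4 of 5 were below all si-Control libraries, and library 5 was within their range. The log2 fold change of −0.25 (SE 0.12, 95% interval −0.51 to 0.01) did not pass the test (adjusted p = 0.132 by edgeR). The value in the GC-corrected fit was −0.26, nearly the same.

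*Axin2* (ENSMUSG00000000142, chr11:108811175-108841609, plus strand), the feedback inhibitor, was at 2.70, 2.15, 2.25, 2.34 and 2.73 FPKM in si-Control and at 1.92, 1.69, 1.80, 1.92 and 1.87 FPKM in si-*Fndc1*. All si-*Fndc1* libraries were below all si-Control libraries, which were the more spread. The mean was 24.4% lower, with log2 fold change −0.40 (SE 0.08, 95% interval −0.57 to −0.22, adjusted p = 0.00303 by edgeR). In the GC-corrected fit it was −0.26 (adjusted p = 0.0361 by edgeR), the largest fall among the 3 members called there.

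**Figure D3:**
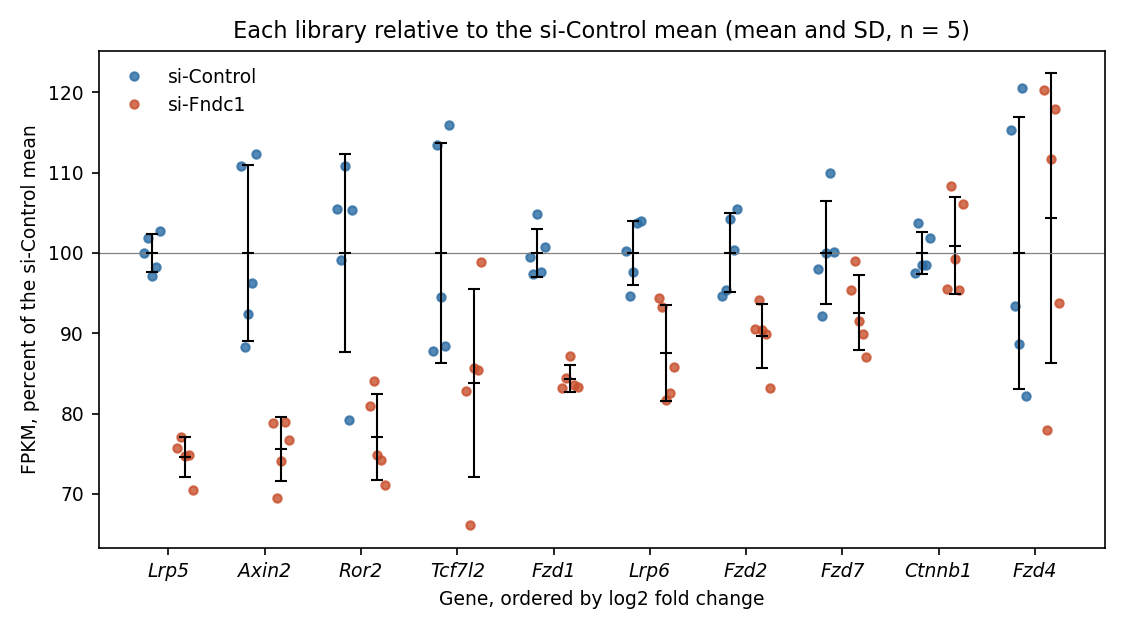
Each library of the 10 genes as a ratio to that gene's si-Control mean, with the group mean and SD (n = 5). The 5 si-*Fndc1* libraries of *Lrp5*, *Lrp6*, *Fzd1*, *Fzd2* and *Axin2* sit below all 5 si-Control libraries, while those of *Ctnnb1* and *Fzd4* sit among them.

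**Figure D4:**
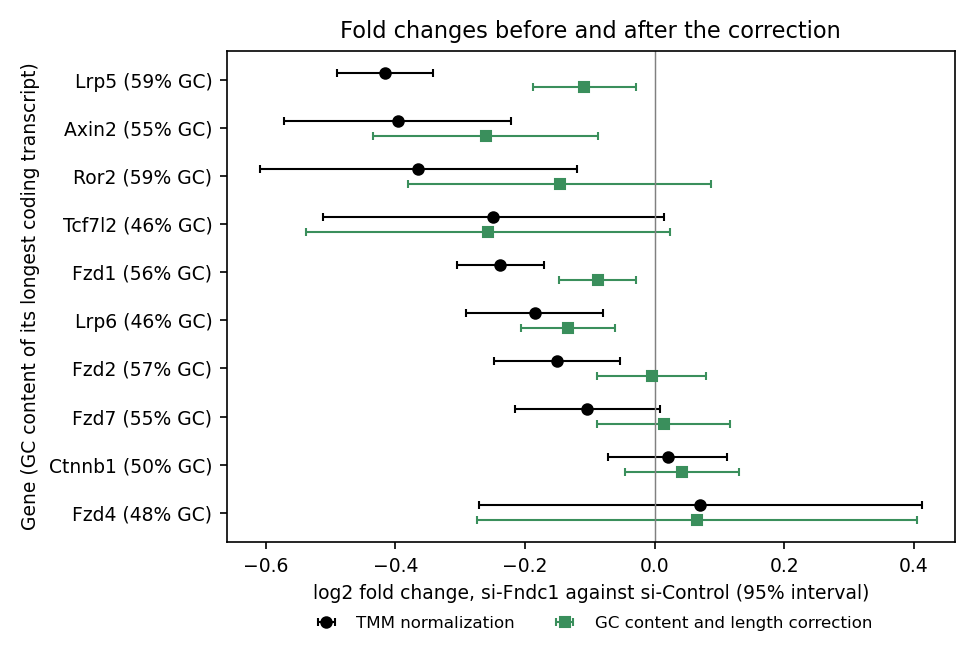
log2 fold change of each gene in si-*Fndc1* against si-Control with its 95% interval, from the fit with TMM normalization (circles) and the GC-corrected fit (squares), with the GC content of the transcript beside the name. *Lrp5* moves from −0.42 to −0.11 between the fits, and *Lrp6* from −0.19 to −0.13.

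Outside the 10 genes, 102 other genes of the pathway were listed by role, of which 60 were tested, 42 were below the filter on low values and 11 of these had no count in any library. Of the 60 tested, 23 were lower in si-*Fndc1* (38.3%, against 17.2% of all tested genes) and only *Wls* was higher. Their median log2 fold change was −0.16, and 48 of the 60 were fitted below 0. In the GC-corrected fit 9 of the 60 were lower and 5 higher, beside 11.4% lower and 11.3% higher of 11185 genes, with a median of −0.04. The same shares over all genes stand beside the counts by role below. The lists were chosen with results of these data known, and no set test was made.

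On the ligand side, 5 of 19 Wnt genes were tested. *Wnt9a* (log2 fold change −0.15, adjusted p = 0.0278) and *Wnt10a* (−0.16, adjusted p = 0.0330) were lower by edgeR, and *Wnt10b* was at 0.31 (adjusted p = 0.0749). After the GC correction *Wnt9a* (−0.03, adjusted p = 0.707) and *Wnt10a* (0.07, adjusted p = 0.401) were not called, and *Wnt10b* was the 1 ligand gene called, higher at 0.50 (adjusted p = 0.0147 by edgeR). Of the genes of ligand release, *Wls*, whose product carries Wnt proteins to the cell surface, rose from 52.2 ± 2.06 to 60.8 ± 1.83 FPKM (SD, n = 5, log2 fold change 0.23, adjusted p = 0.000652 by edgeR), with all si-*Fndc1* libraries above all si-Control libraries. *Porcn*, which attaches the lipid to Wnt proteins, fell by 0.29 on the log2 scale (adjusted p = 0.0195). In the GC-corrected fit neither passed, at 0.11 for *Wls* (adjusted p = 0.0534) and −0.16 for *Porcn* (adjusted p = 0.188).

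At the membrane, *Ptk7*, a pseudokinase Wnt coreceptor, was lower (log2 fold change −0.21, adjusted p = 0.000515 by edgeR), and *Kremen1*, which binds Dickkopf proteins, was at −0.21 (adjusted p = 0.000417). Both were near 0 after the GC correction (0.03 and −0.02). The R-spondin receptor gene *Lgr4* was lower at −0.22 (adjusted p = 0.0316 by edgeR), and at −0.29 (adjusted p = 0.0148) in the GC-corrected fit, 1 of 3 tested genes of the R-spondin axis. The secreted antagonist gene *Sfrp2* fell from 13.0 ± 1.04 to 10.6 ± 1.11 FPKM (log2 fold change −0.28, adjusted p = 0.0233 by edgeR, and −0.33, adjusted p = 0.00659, in the GC-corrected fit), though the call was lost without si-Control library 3 (adjusted p = 0.0569). Of 5 other Frizzled genes, *Fzd5* was called without the correction, at −0.17 (adjusted p = 0.0342 by edgeR), and not with it (−0.06, adjusted p = 0.431). *Fzd6* was called with the correction, at −0.16 (adjusted p = 0.0375 by edgeR), and not without it (−0.07, adjusted p = 0.289).

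All 3 Dishevelled genes, whose products relay the signal from Frizzled, were lower. *Dvl3* fell from 12.9 ± 0.731 to 9.19 ± 0.620 FPKM (SD, n = 5, log2 fold change −0.48, adjusted p = 0.000110 by edgeR). *Dvl2* fell from 7.06 ± 0.394 to 5.04 ± 0.453 FPKM (−0.48, adjusted p = 0.000315) and *Dvl1* was at −0.16 (adjusted p = 0.00287). For all 3 genes the groups did not overlap. After the GC correction *Dvl3* (−0.18, adjusted p = 0.00772 by edgeR) and *Dvl2* (−0.26, adjusted p = 0.0255) were lower, whereas *Dvl1* turned to 0.11 higher (adjusted p = 0.0365).

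In the destruction complex 1 of 9 tested genes was called, the scaffold gene *Axin1*, at −0.24 (adjusted p = 0.0115 by edgeR). With the correction *Axin1* was not called (−0.09, adjusted p = 0.343), and *Btrc* (0.16, adjusted p = 0.0494) and *Tnks* (0.09, adjusted p = 0.0466) were higher, which without the correction had been at −0.05 and −0.07 and not called. Of the TCF/LEF factors other than *Tcf7l2*, *Tcf7l1* fell from 9.92 ± 0.782 to 7.56 ± 0.353 FPKM (log2 fold change −0.38, adjusted p = 0.000658), and the other two did not pass. *Tcf7l1* was at −0.16 in the GC-corrected fit and no longer called (adjusted p = 0.0571 by edgeR). Of 7 tested nuclear cofactors 5 were lower. The adaptors that bridge beta-catenin to Pygopus, *Bcl9l* (−0.54, adjusted p = 0.000149) and *Bcl9* (−0.51, adjusted p = 0.000311), were among them, with *Tle3* (−0.26, adjusted p = 0.00559), a corepressor gene, and *Ctnnbip1* (−0.18, adjusted p = 0.0434), which encodes an inhibitor of the binding of beta-catenin to TCF. In the GC-corrected fit 1 of the 7 cofactors was called, *Bcl9* (−0.30, adjusted p = 0.00654 by edgeR). *Bcl9l* (−0.18, adjusted p = 0.0507), *Ctnnbip1* (−0.13, adjusted p = 0.138) and *Tle3* (0.03, adjusted p = 0.733) were not.

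*Pygo2*, a Pygopus gene named after its values were seen, had the largest fitted value of the 60, at −1.20 (SE 0.38, adjusted p = 0.0310 by edgeR). It was at 6.72, 17.9, 19.3, 19.3 and 19.3 FPKM in si-Control and at 4.13, 5.95, 4.74, 14.6 and 6.29 FPKM in si-*Fndc1*. In each group 1 library lay close to the other group, si-Control 1 and si-*Fndc1* 4. The call was lost in 8 of the 10 fits without 1 library (adjusted p of 0.0535 to 0.0694), the exceptions being those without si-Control 1 (adjusted p = 0.00983) and without si-*Fndc1* 4 (adjusted p = 0.00260). It was also lost in the GC-corrected fit (−1.01, adjusted p = 0.0750 by edgeR) and without the filter on low values (adjusted p = 0.0507). With a block for replicate number *Pygo2* was called without the GC correction (−1.26, adjusted p = 0.0118 by edgeR) and with it (−1.08, adjusted p = 0.0295). In all, 14 of 24 alternatives called it lower.

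The list of beta-catenin target genes is not complete, and genes filed under other roles, which may be targets too, were not counted here. Of the 4 tested genes on it, 0 were called by edgeR, 0 had an unadjusted p under 0.05 and 0 were called by DESeq2. *Nkd2* was higher in the GC-corrected fit, at 0.18 (adjusted p = 0.0456 by edgeR). *Myc* was at 4.05 ± 0.473 and 4.79 ± 0.843 FPKM (log2 fold change 0.25, adjusted p = 0.157), *Ccnd1* at 3.13 ± 0.391 and 3.37 ± 0.301 FPKM (0.11, adjusted p = 0.382), *Nkd2* at 0.09 (adjusted p = 0.304) and *Ccn4* at 0.02 (adjusted p = 0.751). All 4 were fitted above 0, opposite in sign to *Axin2*, although *Ccn4* turned to −0.06 in the GC-corrected fit, where *Myc* was at 0.26 and *Ccnd1* at 0.14, both not called. Some genes filed under other roles that may be targets had the sign of *Axin2* and were not called. These were *Znrf3* (−0.32, adjusted p = 0.108 by edgeR), *Lef1* (−0.15), *Apcdd1* (−0.13), *Lgr5* (−0.08) and *Tcf7* (−0.02). In the GC-corrected fit *Apcdd1* was at 0.21 and *Tcf7* at 0.05, and the others stayed below 0. *Myc* passed without si-*Fndc1* library 3 (adjusted p = 0.0228).

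In the planar polarity branch 3 of 6 tested genes were lower, *Vangl2* (log2 fold change −0.33, adjusted p = 0.00155 by edgeR), *Daam1* (−0.14, adjusted p = 0.0211) and *Daam2* (−0.19, adjusted p = 0.0261). With the GC correction *Vangl2* (−0.21, adjusted p = 0.0200) and *Daam1* (−0.17, adjusted p = 0.00488) were lower by edgeR, and *Daam2* was at 0.0036 (adjusted p = 0.962). Of the partners of beta-catenin at cadherin junctions, the gene of p120-catenin, *Ctnnd1*, fell from 50.2 ± 1.44 to 41.9 ± 0.999 FPKM (SD, n = 5, log2 fold change −0.25, adjusted p = 0.000105 by edgeR), and its value was −0.25 in the GC-corrected fit too (adjusted p = 6.38e-05). *Cdh15*, the muscle cadherin gene, was at −0.18 (adjusted p = 0.00208) and at 0.03 after the correction.

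**Figure D5:**
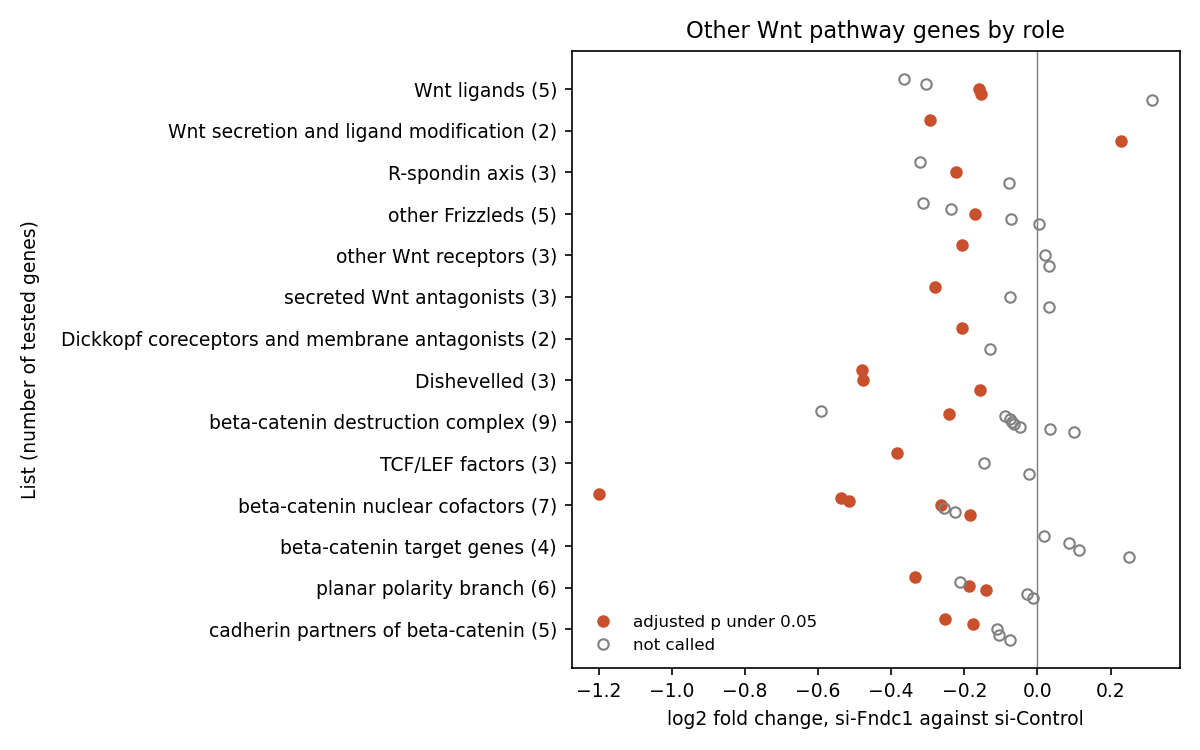
log2 fold change in si-*Fndc1* against si-Control of the 60 other tested Wnt pathway genes, in rows by role with the number tested. Values are from the fit without the GC correction. Filled points passed an adjusted p of 0.05, and 23 of the 24 filled points lie below 0, with *Wls* the exception.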

How the data were processed

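RNA was sequenced from C2C12 cells, 5 si-Control and 5 si-*Fndc1* libraries, grouped by their labels. The authors deposited 1 table with a raw count and an FPKM value per gene and library, with FPKM listed as 0.0001 where no read was counted, and 0 columns were unmapped. The sources differ on how it was made: the methods name TopHat, mm10, htseq-count and fewer libraries, the series text STAR, mm9 and an earlier time after transfection, and the submitters' processing notes cutadapt 1.9, FastQC and GRCm39. How FPKM was computed and whether strand was used are not given in the sources used here.

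Counts were tested with edgeR 4.0.16 (quasi-likelihood F test, TMM, R 4.3.3) on the 13548 genes whose FPKM averaged 0.5 or more, with Benjamini-Hochberg adjustment over all of them and a threshold of 0.05. Single values were compared by exact two-sided permutation tests (scipy 1.17.1). The GC-corrected fit removed splines of GC content and length (5 degrees of freedom each) from each library as offsets, by robust regression (MASS), for the 11185 genes (82.6%) with a GC content. Libraries of a group differed beyond counting noise in each of 20 pairs (lowest chi-square over its degrees of freedom 41.5). Fits were tested on simulated data. Alternatives were DESeq2 1.42.0, limma 3.58.1 on log2(FPKM + 1), other normalizations and filters, a replicate block and leaving out each library.

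Named genes are the 10 members, *Fndc1*, up to 3 tested genes of smallest p in each Wnt list, and markers of highest level. *Pygo2*, *Ctnnbip1*, *Ccn4*, *Btrc*, *Tnks*, the muscle markers other than *Acta1*, *Alb*, *Cdh5* and *Ptprc* were named after their values were seen or as defining markers. The GC box, the E-box and the shorter TCF/LEF core were added as motifs after the longer TCF/LEF form. The members and lists were chosen with earlier results of these data known.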

Additional observations from a re-analysis of the deposited data

Results flagged for a closer look

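Among 104 groups of 5 libraries over 52 of the named genes, 4 had a library far from the others (gap over range above 0.71), and chance flags about 1 in 20. For *Wls*, si-Control library 2 was the highest of its group at 55.8 FPKM, while the others were at 50.6 to 51.8 FPKM. For *Ccnd1*, si-*Fndc1* library 3 was the lowest at 2.85 FPKM, with the others at 3.41 to 3.58 FPKM. For *Pygo2*, si-Control library 1 was the lowest at 6.72 FPKM, with the others at 17.9 to 19.3 FPKM, and si-*Fndc1* library 4 was the highest at 14.6 FPKM, with the others at 4.13 to 6.29 FPKM.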

How the results depend on the processing

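The fall of *Fndc1* held in all 24 alternatives (−0.45 to −0.22 on the log2 scale). With the GC correction *Lrp5* was at −0.11 (adjusted p = 0.0530), *Fzd2* at −0.0043 (adjusted p = 0.951) and *Ror2* at −0.15 (adjusted p = 0.363), *Fzd7* turned to 0.01 (0.0138), 3 members, 14 other Wnt pathway genes (9 lower, 5 higher) and 2536 genes in all were called. A fit without the correction on the same genes called 37.9% of them. *Wnt10a* turned to 0.0685, *Ptk7* to 0.0333, *Dvl1* to 0.114, *Tle3* to 0.0268, *Daam2* to 0.00365, *Cdh15* to 0.0269, *Ccn4* to −0.0556, *Btrc* to 0.164, *Tnks* to 0.0915 and *Ttn* to 0.0687. With the length correction alone *Btrc* was at 0.0388 and *Tnks* at 0.0140. Without the filter *Fzd2* (−0.15, adjusted p = 0.0512) and *Ror2* (−0.36, adjusted p = 0.0587) were not called. With quantile normalization *Fzd4* was at −2.14e-05, *Ctnnb1* at −0.0208 and *Ccn4* at −0.0868. Of these, *Ccn4* was called lower, just under the threshold (adjusted p = 0.04997 by limma). With 1 library left out, *Fzd2* ranged from −0.17 to −0.12, *Ror2* from −0.44 to −0.33 and *Ctnnb1* from −0.0077 (without si-*Fndc1* 2) to 0.0410 and *Ccn4* from −0.00198 (without si-Control 4) to 0.0428. In those fits 4 to 6 members were called, beside 4000 to 4627 of all 13548 tested genes. The calls of *Wnt9a*, *Wnt10a*, *Lgr4*, *Fzd5*, *Ctnnbip1*, *Daam1* and *Daam2* were each lost in 3 to 8 of those 10 fits. At a mean FPKM of at least 5 *Axin2*, *Tcf7l2*, *Ror2* and *Fzd4* were not tested.

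Replicate numbers did not pair the libraries: correlations of same-numbered libraries were −0.06 to 0.06 over 5 pairs, and 2 of 10 libraries correlated best with their own number. With the replicate block 4 members were called and 26.4% of all genes, and *Fzd2* (−0.15, adjusted p = 0.0838) and *Ror2* (−0.36, adjusted p = 0.0727) were not. With block and length correction *Lrp6* (−0.11, adjusted p = 0.0780), *Fzd2* (−0.15, adjusted p = 0.0836) and *Ror2* (−0.35, adjusted p = 0.0716) were not called, leaving 3 members, and *Btrc* was at 0.0397 and *Tnks* at 0.0136. The count of 3 is given without the share of all genes called in the same fit, so it is not a result about the members. With block and GC correction 0 members were called by edgeR (4 at an unadjusted p under 0.05), with *Lrp5* at −0.11 (adjusted p = 0.143), *Lrp6* at −0.13 (adjusted p = 0.0552), *Fzd1* at −0.0874 (adjusted p = 0.0825), *Fzd2* at −0.0043 (adjusted p = 0.962), *Fzd7* at 0.01 (0.0145), *Axin2* at −0.26 (adjusted p = 0.0504) and *Ror2* at −0.14 (adjusted p = 0.444). That fit called 6 other Wnt pathway genes and 1647 genes in all, and had *Wnt10a* at 0.0671, *Ptk7* at 0.0329, *Dvl1* at 0.113, *Tle3* at 0.0242, *Daam2* at 0.00252, *Cdh15* at 0.0269, *Ccn4* at −0.0559, *Btrc* at 0.164, *Tnks* at 0.0916 and *Ttn* at 0.0696. The cause was not tested. *Fzd4*, *Ror2* and *Tcf7l2* rest on the fewest counts per library of the 10 genes and have the widest intervals.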
